A study of Canis lupus familiaris with 16 samples.

Results

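The 10 genes described here encode laminin chains and the proteins that tie laminin into the basement membrane, in RNA from 16 canine soft tissue sarcomas. They were taken by name from the 41818 genes of the count table and all 10 were found: the alpha chain genes LAMA2, LAMA4 and LAMA5, the beta chain genes LAMB1 and LAMB2, the gamma chain genes LAMC1 and LAMC3, the nidogen genes NID1 and NID2, and HSPG2, which encodes perlecan. The molecular identity given for each tumor made 4 of them fibrosarcomas (FS), while 6 belonged to the peripheral nerve sheath tumors (PNST) and 6 to the perivascular wall tumors (PWT). The dogs were of several breeds and were aged from 9 to 13 years in FS, from 8 to 13 in PNST and from 2 to 14 in PWT. The archived blocks had been fixed in formalin and embedded in paraffin, no treatment is named, and there was no normal tissue in the table. The histological diagnosis differed from the molecular identity in 2 tumors, S2-08 (FS by histology, PWT here) and S1-10 (PWT by histology, PNST here). The study reassigned both from their expression, so the groups are partly defined by the RNA that is compared here. S1-04 and S1-05 have the same entries for the animal and may come from 1 dog.

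A laminin is a heterotrimer of an alpha, a beta and a gamma chain that assembles outside the cell into a sheet bound to receptors on the cell surface, chiefly integrins and dystroglycan. Nidogens bind the gamma 1 chain and, with perlecan, connect the laminin sheet to that of type IV collagen. In peripheral nerve, each Schwann cell unit lies in a basement membrane rich in laminin with the alpha 2 chain, while vessel walls use the alpha 4 and alpha 5 chains, so that both nerve sheath and perivascular cells normally live on such a membrane.

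Reads on genes summed to between 507728 (S1-12) and 4311876 per tumor, and levels are given as CPM, read counts scaled to a common library size with TMM factors. Names of 9 tumors begin with S1 (3 runs each) and names of 7 with S2 (1 run each), and the study sequenced its libraries in groups, so this prefix may mark the sequencing group. It was unevenly spread, with 3 S1 tumors among the 4 FS, 5 among the 6 PNST and 1 among the 6 PWT. The summed level of 12 Schwann cell markers was 75.3 to 307 CPM in PNST, 59.9 to 154 in FS and 50.1 to 134 in PWT, and of the 7 that could be tested 0 were called for PNST by edgeR or DESeq2, with 2 at an unadjusted p under 0.05 in edgeR. FOXD3, a transcription factor of the neural crest, was at 0 in all FS and PNST. The summed level of 12 mural and smooth muscle markers was 453 to 916 CPM in PWT, 446 to 964 in PNST and 691 to 2188 in FS, and 0 of the 12 were called for PWT by edgeR or DESeq2, with 3 at an unadjusted p under 0.05 in edgeR. The summed levels of these markers overlapped between the types. For PNST, edgeR called 0 of all 15408 genes tested, so its count of 0 Schwann cell markers tells nothing about them. An unadjusted p under 0.05 was found there for 2415 genes. For PWT, edgeR called 2.12% of all genes, a share near 0 of 12, and 3449 genes had an unadjusted p under 0.05. DESeq2 called 0.812% of all genes for PNST and 2.42% for PWT. In whole sections, fewer cells of a type and less RNA per cell cannot be told apart.

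All 10 genes passed the filter on low counts (10 or more reads in 4 or more tumors) and were tested. Between the lowest and the highest tumor, levels differed 2.69-fold for LAMC1, 3.56-fold for NID1 and 4.47-fold for LAMA4, against 88.6-fold for LAMC3. The median coefficient of variation between runs of a tumor was 3.87% to 15.3% for the 10 genes, and between tumors it was 24.8% to 202%. Runs were repeated in S1 tumors alone and show technical spread, which for LAMC3 reached 106% in 1 tumor. The plot of levels by tumor shows the spread within and among types. S1-11, an FS, had the highest level of 4 of the genes (LAMA4, LAMB1, NID1 and HSPG2), and S2-11, a PWT, had the lowest level of 4 (LAMA4, LAMC3, NID1 and HSPG2). Summed over the 10 genes, the level was 2740 to 6209 CPM in FS, 3674 to 6335 in PNST and 2261 to 5194 in PWT, so that the types overlapped.

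**Figure D1:**
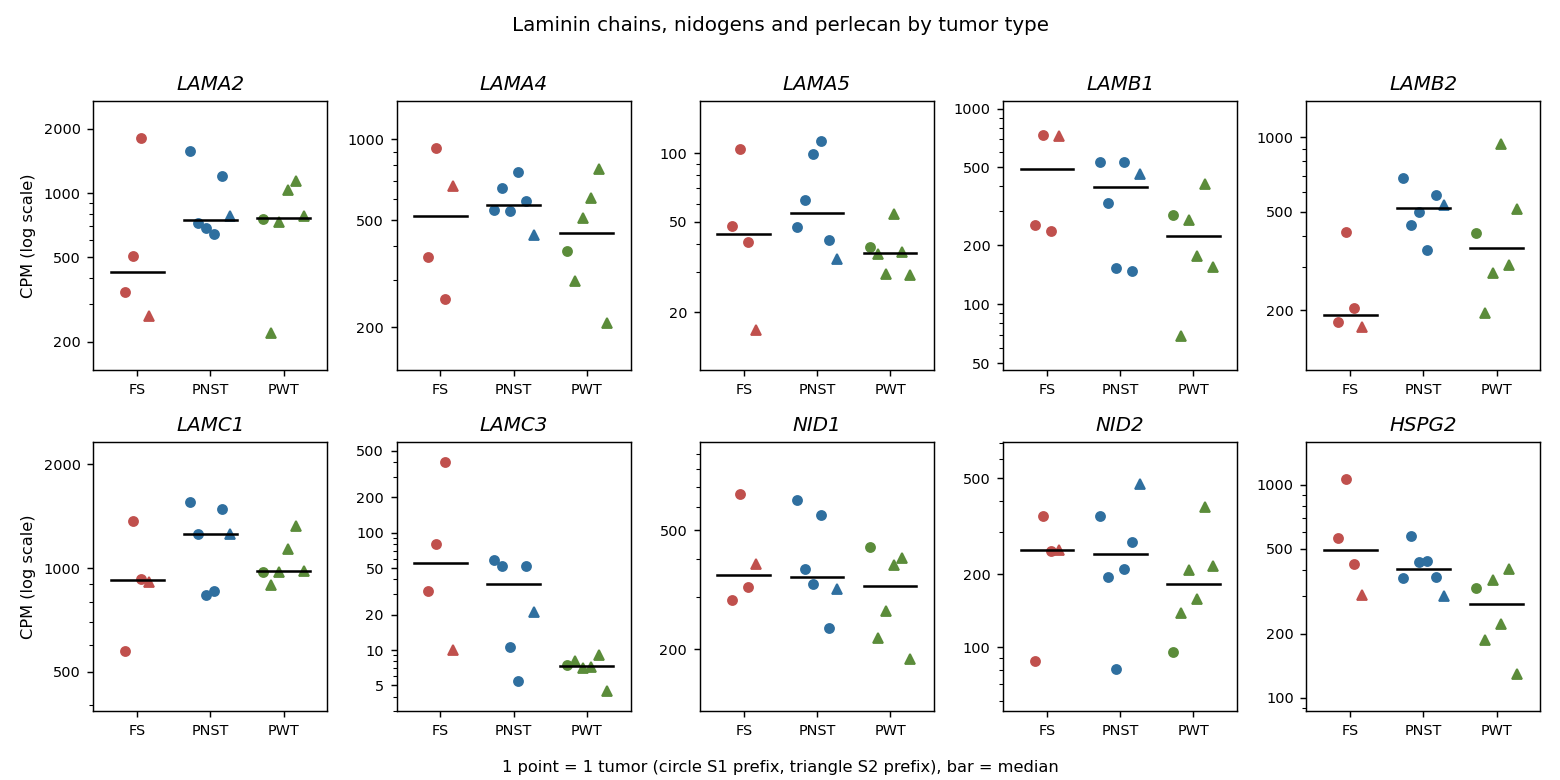
Level of each of the 10 genes as CPM on a log scale in 4 FS, 6 PNST and 6 PWT. Each point is 1 tumor (circles S1, triangles S2) and each bar is the median of a type. The types overlap in each panel except for FS and PWT in LAMC3, where the 6 PWT lie between 4.49 and 8.99 CPM.

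LAMC3 encodes the gamma 3 chain, which takes the place of the common gamma 1 chain in some laminins. It stood at 31.9 CPM in S1-02, 79.5 in S1-11, 398 in S1-12 and 9.98 in S2-06 among the FS. In the 6 PNST it ranged from 5.43 to 58.0 CPM with a median of 36.7. In the 6 PWT it ranged from 4.49 to 8.99 CPM with a median of 7.26. The PWT thus formed a narrow low band, the PNST held 3 tumors above 50 CPM and others down to the PWT level, and the FS ran from just above that band to the highest level of all. The values rest on few reads, 5 to 20 per PWT and 21 to 216 per FS. The lowest FS, S2-06, with an exact Poisson 95% interval of 6.18 to 15.3 CPM, was within counting error of the highest PWT (S2-09, 4.49 to 16.1 CPM). Such intervals cover counting error only.

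**Figure D2:**
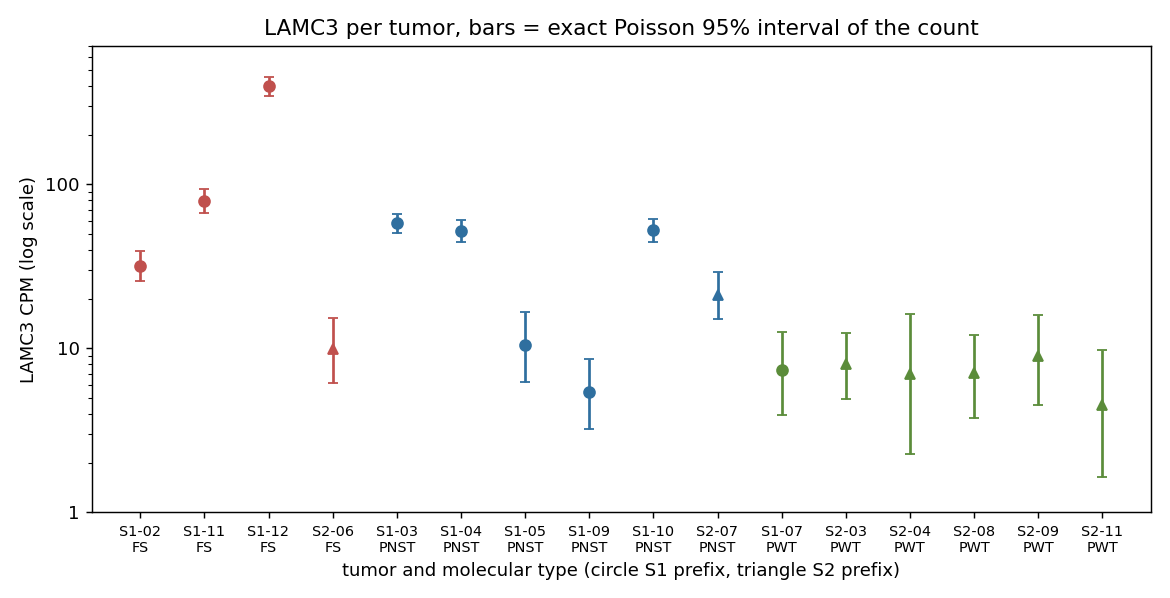
LAMC3 level in each of the 16 tumors as CPM on a log scale, with the exact Poisson 95% interval of its count as error bar (circles S1, triangles S2). S1-12 is highest at 398 CPM, while the FS S2-06 and the PNST S1-05 and S1-09 lie at or near the level of the 6 PWT.

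A differentially expressed gene (DEG) was a gene with an adjusted p under 0.05 in edgeR's quasi-likelihood test and a log2 fold change beyond 1 in either direction. For FS against both other types pooled, 1 of the 10 genes was a DEG, LAMC3, where 9.46% of all 15408 genes tested were. LAMC3 was higher in FS by 2.59 on the log2 scale (SE 0.73), or 6.03-fold, with an adjusted p of 0.0281. This call rested on S1-12, the tumor with the fewest reads: without it, the log2 fold change was 0.95 and the adjusted p 0.467. It was also lost with the prefix in the model (1.94, adjusted p = 0.0814), among S1 tumors alone (2.41, adjusted p = 0.122) and with tumors grouped by histology (2.20, adjusted p = 0.162).

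For PWT against both other types, LAMC3 was the 1 DEG among the 10 genes, against 2.12% of all genes. Its log2 fold change in PWT was -3.25 (SE 0.84), or 9.53-fold lower, with an adjusted p of 0.0458. The sign was the same under all 25 alternatives that were run, but LAMC3 was a DEG under 11 of them. The call was lost without any 1 of the 6 PWT, without S1-11 among the FS and without S1-03, S1-04 or S1-10 among the PNST (log2 fold change from -3.33 to -3.15). With the prefix in the model it was -1.90 with an adjusted p of 0.553, among S2 tumors alone it was -1.09 (adjusted p = 0.457), and with the histology groups it was -2.06 (adjusted p = 0.307).

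For PNST against both other types, 0 of the 10 genes were DEGs in edgeR, as were 0% of all genes. None of the 10 had an unadjusted p under 0.05 there, where 2415 of the 15408 genes did, and DESeq2 called 0 of the 10. The log2 fold changes of the 10 genes had a median of 0.25 for PNST, beside -0.06 over all genes. For FS the median was 0.05 beside 0.00, and for PWT it was -0.36 beside -0.08, with 9 of the 10 values below 0. With the prefix in the model, and likewise among S2 tumors alone, 7 of the 10 PWT values were below 0, and LAMA2 (0.26 and 0.60) and LAMA5 (0.06 and 0.57) were above it.

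Between FS and PWT, 2 of the 10 genes were DEGs, LAMC3 and HSPG2, both higher in FS, against 11.2% of all genes. LAMC3 was higher by 4.11 (SE 0.81), or 17.3-fold, with an adjusted p of 0.00431. It was the 1 gene of the 10 whose ranges in FS and PWT did not overlap, as was so for 8.60% of all genes tested. It remained a DEG under 22 of 24 alternatives, the one without S1-12 included (2.48, adjusted p = 0.0206), and was lost with the prefix in the model (3.03, adjusted p = 0.0958) and with the histology groups (2.71, adjusted p = 0.158). The median of PNST lay between those of the other types in LAMC3, and neither difference passed in edgeR. FS exceeded PNST by 1.90 (SE 0.73, adjusted p = 0.121), which was 0.27 without S1-12 (adjusted p = 0.850) and a call of 2.31 without S2-06 (adjusted p = 0.0476), and PNST exceeded PWT by 2.21 (SE 0.74, adjusted p = 0.132). In DESeq2's Wald test the latter difference was called (2.21, adjusted p = 0.0303).

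Between FS and PNST, 0 of the 10 genes were DEGs in edgeR and in DESeq2, while 7.13% of all genes were in edgeR, and LAMB2 and LAMC3 had an unadjusted p under 0.05. Between PNST and PWT, 0 of the 10 were DEGs in edgeR against 0.169% of all genes, LAMA5 and LAMC3 had an unadjusted p under 0.05, and DESeq2 called LAMC3. All 10 genes had a positive log2 fold change in PNST over PWT, with a median of 0.39 beside 0.02 over all genes. With the prefix in the model 9 were positive, LAMA2 was at -0.14 and LAMA5 fell from 0.82 to 0.07. The median was 0.33 beside 0.04 for FS over PWT and -0.13 beside 0.03 for FS over PNST. The 6 comparisons share tumors and are not independent of each other.

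**Figure D3:**
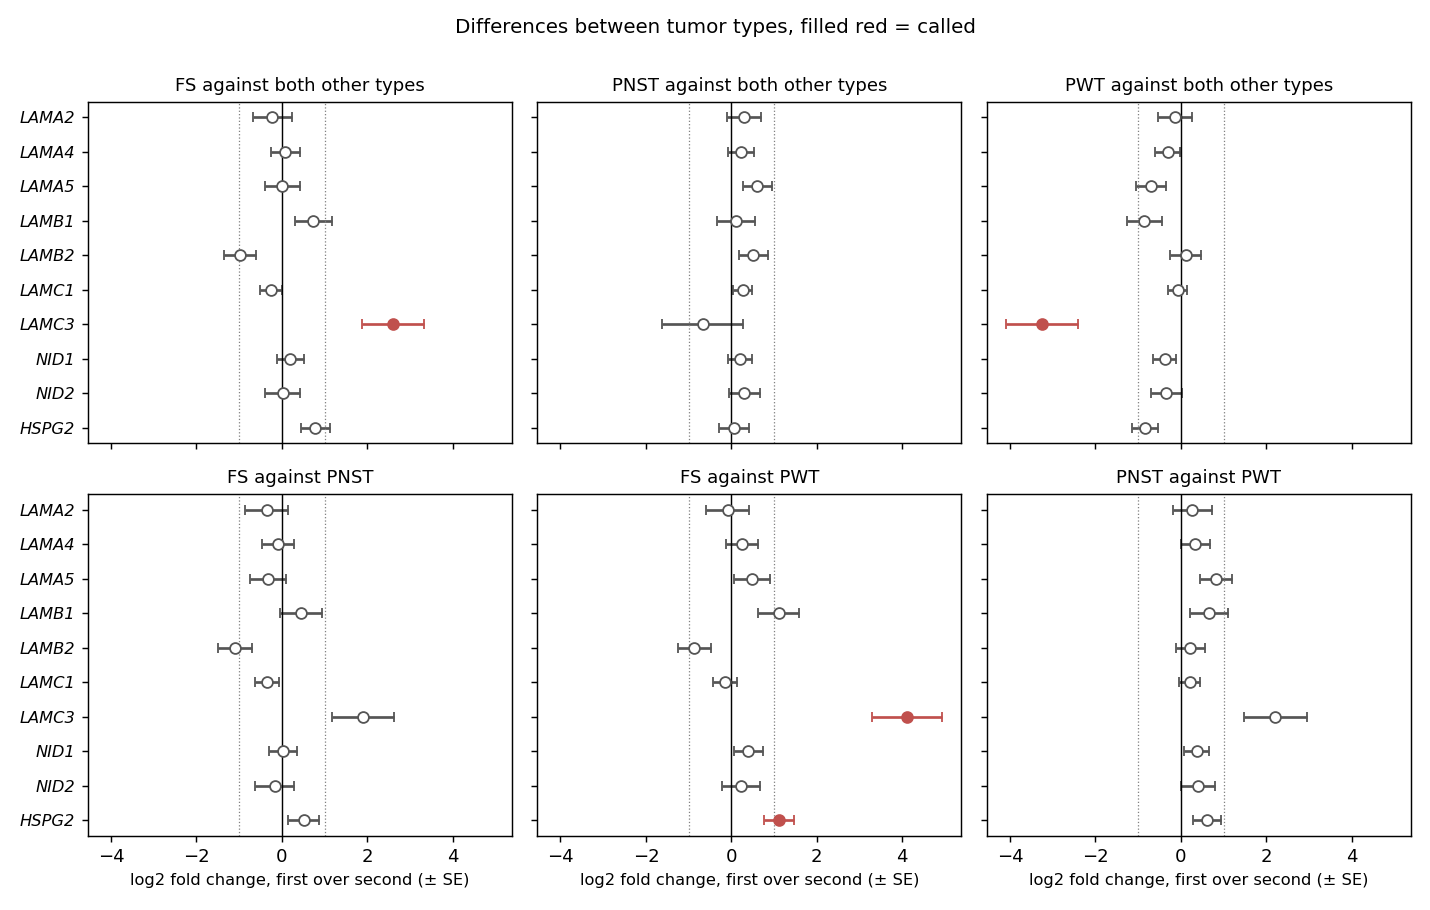
Log2 fold change with its SE for the 10 genes in 6 comparisons, first type over second, from edgeR. Filled red points are DEGs (LAMC3 in 3 panels, HSPG2 in FS against PWT), open points are not, and dotted lines mark a log2 fold change of 1 in either direction.

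HSPG2 encodes perlecan, the large heparan sulfate proteoglycan of basement membranes. Its level was 562 CPM in S1-02, 1063 in S1-11, 425 in S1-12 and 304 in S2-06 among the FS. In PNST it was 300 to 576 CPM with a median of 401, and in PWT it was 129 to 404 CPM with a median of 275. S1-11 stood above the other 15 tumors, and the other 3 FS lay inside the range of the PNST. FS exceeded PWT by 1.12 on the log2 scale (SE 0.35), or 2.17-fold, with an adjusted p of 0.0453. The call held under 7 of 24 alternatives: without S1-11 the difference was 0.66 (adjusted p = 0.239), and with the prefix in the model it was 0.68 (adjusted p = 0.343). HSPG2 was higher in FS by 0.78 against both other types (adjusted p = 0.145) and lower in PWT by a log2 fold change of -0.84 (adjusted p = 0.124), and neither passed.

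Marker genes of several cell types, some of which tumor cells may themselves express, varied beside these values. In S1-11, the summed level of 9 fibroblast markers was 99130 CPM, against 17824 to 26197 in the other FS. Most of that sum was on collagen genes: in FS, COL1A1 reached 41308, COL3A1 36391 and COL1A2 17837 CPM, and no other of the 9 exceeded 2688 CPM. The mural markers summed to 2188 CPM in S1-11, and 10 skeletal muscle markers to 1099 CPM, against 4.75 to 9.21 in the other FS. The skeletal muscle sum was 9.74 to 13.4 CPM in PNST and 3.74 to 459 in PWT, where S1-07 was highest. For FS against both other types, 3 of 12 mural markers (ACTA2, CNN1 and MCAM) and 3 of 9 fibroblast markers (COL1A1, COL3A1 and LUM) were DEGs, all higher in FS, beside 9.46% of all genes. So were 1 of 2 tested skeletal muscle markers (MYH7) and 1 of 8 macrophage markers (C1QB), both higher in FS. MYH7 was at 2.38 to 127 CPM in FS with a median of 3.10. Other fibroblast markers were lower on average in FS without passing in edgeR in that comparison, such as DCN and PDGFRA. DCN was at 118 to 2688 CPM in FS, 1953 to 3723 in PNST and 2195 to 5062 in PWT, a difference that DESeq2 called. PDGFRA was at 180 to 336 CPM in FS, 297 to 1054 in PNST and 193 to 550 in PWT. Between FS and PNST, PDGFRA was the 1 of the 9 called by edgeR, lower in FS, beside 7.13% of all genes. DESeq2 called it there too. The 12 endothelial markers summed to 289 to 683 CPM in FS, 212 to 702 in PNST and 200.5 to 615 in PWT, and none of the 12 was at 0 in all tumors of a type. Keratinocyte markers summed to 1827 CPM in S1-02 and 1096 in S1-12, against 173 in S1-11 and 53.7 in S2-06. They summed to 15.7 to 1634 CPM in PNST and 12.5 to 1419 in PWT, so high sums occurred in all 3 types. The part of these cell types in the levels of LAMC3 and HSPG2 was not tested.

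Between the beta chain genes, the log2 fold changes of FS had opposite signs, and neither was called. LAMB2, which encodes the beta 2 chain of synaptic, glomerular and vessel laminins, was at 180 CPM in S1-02, 413 in S1-11, 204 in S1-12 and 172 in S2-06. The PNST had 350 to 683 CPM with a median of 517, and in PWT it was 195 to 938 with a median of 358. Of the 4 FS, 3 thus lay below the lowest PNST, and S1-11 lay inside the PNST range. The log2 fold change was -0.98 for FS against both other types (SE 0.37, adjusted p = 0.0937) and -1.09 against PNST (SE 0.40, adjusted p = 0.103), so that neither was called. Without S1-11 both were, at -1.37 (adjusted p = 0.0465) and -1.49 (adjusted p = 0.0471), while with the histology groups they were -0.19 (adjusted p = 0.867) and -0.39 (adjusted p = 0.780).

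LAMB1, which encodes the beta 1 chain found in most laminins, was at 255 CPM in S1-02, 733 in S1-11, 238 in S1-12 and 727 in S2-06. In PNST it ranged from 147 to 533 CPM with a median of 396, and in PWT from 69.1 to 410 with a median of 223. S1-11 and S2-06 lay above all PNST and PWT, and the other 2 FS lay inside the range of both types. FS exceeded PWT by 1.11 on the log2 scale (SE 0.49, unadjusted p = 0.0357), which did not pass with an adjusted p of 0.141.

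A ratio of counts of 2 genes within a tumor does not depend on the size or scaling of the library, and 6 such ratios between chains of a class were tested over the 3 types by an exact permutation test over 1681680 assignments of the tumors, with adjustment over the 6. The ratio of LAMC3 to LAMC1 differed between types (exact p = 0.00515, adjusted 0.0309). It was 0.0557 in S1-02, 0.0581 in S1-11, 0.427 in S1-12 and 0.0112 in S2-06, against 0.00648 to 0.0417 in PNST and 0.00494 to 0.00929 in PWT. Of the reads on both gamma chain genes, LAMC3 thus took 1.08% to 29.9% in FS, 0.627% to 4.00% in PNST and 0.454% to 0.898% in PWT. With labels permuted among tumors of the same prefix, the adjusted exact p was 0.0374. It was 0.0626 without both reassigned tumors and 0.727 with the histology groups, and it ranged from 0.00257 to 0.0815 over fits that each left out 1 tumor. It was above 0.05 without S1-02, S1-11, S1-12, S1-07, S2-04, S2-08 or S2-11.

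The ratio of LAMB2 to LAMB1 was 0.709 in S1-02, 0.564 in S1-11, 0.861 in S1-12 and 0.237 in S2-06. In PNST it was 0.657 to 3.99 with a median of 1.32, and in PWT it was 0.743 to 5.31 with a median of 2.13. All 4 FS thus had fewer reads on LAMB2 than on LAMB1, as had 1 PNST (S1-09) and 1 PWT (S2-09). LAMB2 took 35.7% ± 11.8 of the beta chain reads in FS (SD, n = 4), 60.6% ± 15.2 in PNST (n = 6) and 64.6% ± 16.2 in PWT (n = 6). The difference had an exact p of 0.0299 and did not pass adjustment over the 6 ratios (0.0897), while with labels permuted within prefixes the adjusted exact p was 0.0374. It was 0.759 with the histology groups and 0.1246 without both reassigned tumors. Leaving out each tumor in turn gave adjusted values of 0.0422, without S2-09, to 0.364.

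**Figure D4:**
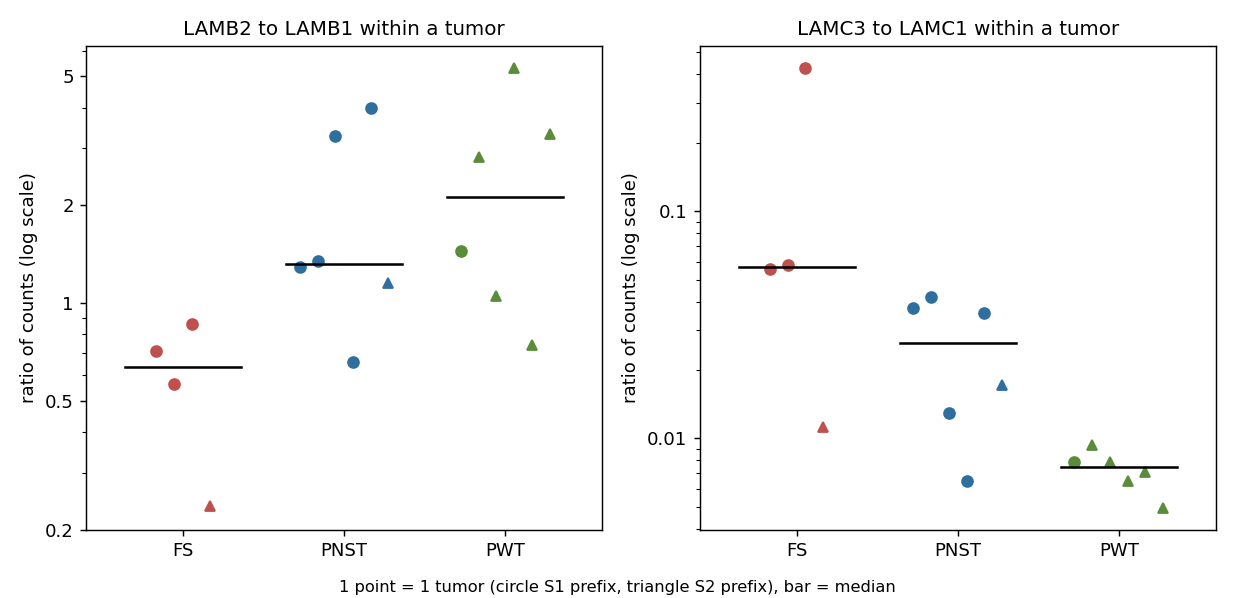
Ratio of counts within each tumor on a log scale, LAMB2 to LAMB1 on the left and LAMC3 to LAMC1 on the right, with 1 point per tumor (circles S1, triangles S2) and the median of each type as a bar. The 4 FS lie below 1 for LAMB2 to LAMB1, and the 6 PWT lie below 0.01 for LAMC3 to LAMC1.

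None of the 3 alpha chain genes was a DEG in any of the 6 comparisons by edgeR, and LAMA5 had an unadjusted p under 0.05 in 1 of them. LAMA2, whose chain is the main one of Schwann cell and skeletal muscle basement membranes, was at 345 CPM in S1-02, 508 in S1-11, 1812 in S1-12 and 264 in S2-06. Among the PNST its level was 645 to 1572 CPM with a median of 750, and in PWT it was 221 to 1141 with a median of 766. Apart from S1-12, the highest of all 16 tumors, the FS lay below the lowest PNST. No comparison passed for LAMA2, whose log2 fold change was -0.23 for FS (SE 0.45), 0.30 for PNST (SE 0.40) and -0.14 for PWT (SE 0.41), each against both other types. Without S1-12 the value for FS was -1.20 (adjusted p = 0.0852), and that against PNST was -1.33 (adjusted p = 0.0828).

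LAMA4, whose chain is made by endothelial, muscle and nerve sheath cells, was at 364 CPM in S1-02, 930 in S1-11, 256 in S1-12 and 670 in S2-06. In PNST it was 442 to 755 CPM with a median of 568, and in PWT it was 208 to 777 with a median of 449. The PNST had the smallest spread (coefficient of variation 18.3%, against 55.0% in FS and 45.1% in PWT). In S1-12 the levels of LAMA2 and LAMA4 lay at opposite ends, and the ratio of LAMA4 to LAMA2 was 0.142 there, against up to 2.54 in the other FS. Over the types that ratio had an adjusted exact p of 0.935, and of 0.0714 without S1-12.

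LAMA5, whose chain is found in mature epithelial and vessel basement membranes, was at 48.0 CPM in S1-02, 104 in S1-11, 40.5 in S1-12 and 16.6 in S2-06. The PNST had 34.2 to 114 CPM with a median of 54.7, and in PWT it was 29.2 to 54.1 with a median of 36.4. PNST thus reached higher than PWT, with 3 tumors above the highest PWT, but the ranges overlapped. PNST exceeded PWT by 0.82 on the log2 scale (SE 0.37, unadjusted p = 0.0419), with an adjusted p of 0.236. The ratios of LAMA5 to LAMA2 and to LAMA4 did not pass over the types (adjusted exact p = 0.935 for both).

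LAMC1, which encodes the gamma 1 chain shared by most laminins, varied least of the 10 genes over the 16 tumors. It was at 576 CPM in S1-02, 1372 in S1-11, 932 in S1-12 and 912 in S2-06. PNST levels were 837 to 1551 CPM with a median of 1255, and in PWT it was 891 to 1327 with a median of 980. Its log2 fold changes against both other types were -0.25 for FS (SE 0.26), 0.26 for PNST (SE 0.23) and -0.08 for PWT (SE 0.23), with adjusted p-values of 0.595 to 0.875.

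The nidogens, which bridge laminin and type IV collagen, showed no difference between types that passed. NID1 was at 292 CPM in S1-02, 660 in S1-11, 324 in S1-12 and 386 in S2-06, at 235 to 632 CPM in PNST (median 350) and at 186 to 439 in PWT (median 325). NID2 was at 87.1 CPM in S1-02, 347 in S1-11, 250 in S1-12 and 252 in S2-06, at 81.2 to 471 in PNST (median 242) and at 95.7 to 380 in PWT (median 183). The largest log2 fold change of either gene among the 6 comparisons was 0.40, for NID2 in PNST over PWT (SE 0.40, adjusted p = 0.598). The ratio of NID2 to NID1 ran from 0.218 to 1.48 over all tumors and had an adjusted exact p of 0.935 over the types.

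Over the 16 tumors, the genes paired unevenly in rank. Of the other members, NID1 was closest to LAMB1 (Spearman's rho 0.771 on log2 CPM), and 3 of the 15408 tested genes were closer to LAMB1 than NID1 was. LAMC1 and NID2 had a rho of 0.735, and both had MSH6, a DNA mismatch repair gene, as the gene outside the 10 with the highest rho (0.809 and 0.806). LAMA5 and HSPG2 also had a rho of 0.735. For LAMC3 the closest member was HSPG2 with a rho of 0.538, and 884 tested genes were closer, led by NHS (0.956). The closest outside gene was DCTN1 for LAMB2 (0.906), SEMA6C for HSPG2 (0.891), BTBD2 for LAMA5 (0.885), CCDC163 for LAMA4 (0.882), C9H9orf78 for LAMA2 (0.874), SHOX2 for NID1 (0.853) and HECW2 for LAMB1 (0.832). These correlations describe 16 tumors that share libraries, depth and groups, and each is the highest of many.

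Another 51 basement membrane genes were counted as lists, of which 44 passed the filter. For FS against both other types 3 of the 44 were DEGs (6.82%, against 9.46% of all genes), all higher: LAMA3, COL15A1 and COL18A1. FS differed from PNST in 4 (9.09%, against 7.13%), LAMA3, COL15A1 and ITGA1 higher and FBLN2 lower. For PNST against both other types 0 were, with 0 also over all genes, while 7 of the 44 had an unadjusted p under 0.05 in edgeR and DESeq2 called FBLN2. The median log2 fold change over the 44 was 0.16 for FS and 0.06 for PNST, each against both other types, beside 0.00 and -0.06 over all genes.

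Among the other laminin chains, LAMA3, which encodes the alpha 3 chain of epithelial laminins, was higher in FS. It was at 50.6 CPM in S1-02, 147 in S1-11, 57.1 in S1-12 and 71.7 in S2-06, all above the highest PNST (47.5 CPM) and the highest PWT (29.4 CPM). Of the 15408 genes tested, 1112 had ranges that did not overlap between FS and PNST, and 1325 between FS and PWT. The log2 fold change was 1.92 against both other types (SE 0.42, adjusted p = 0.00688) and 1.86 with the prefix in the model (adjusted p = 0.0110). LAMA3 was also higher than in PNST (1.72, adjusted p = 0.0427) and than in PWT (2.18, adjusted p = 0.0115), though with the prefix in the model these had adjusted p-values of 0.0512 and 0.0511. LAMB3, which encodes the beta 3 chain that pairs with it, was at 1.64 to 24.2 CPM in FS with a median of 4.35. In PNST it was 0 to 6.91 CPM (median 2.49), and in PWT 0.748 to 10.1 (median 1.27). LAMB3 had an unadjusted p under 0.05 for FS against both other types in edgeR, but was not a DEG in any comparison.

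Of 8 collagen chain genes of basement membranes, 5 passed the filter. COL15A1, which encodes the multiplexin that links basement membranes to the fibrillar collagen beneath, was at 64.9 CPM in S1-02 but 733 in S1-11, 709 in S1-12 and 599 in S2-06. In PNST it was 45.0 to 184 CPM and in PWT 54.7 to 101 CPM, so that 3 FS stood apart and S1-02 did not. The log2 fold change of FS against both other types was 2.60 (SE 0.39, adjusted p = 5.31e-04), and 2.61 with the prefix in the model. COL18A1, whose C-terminal fragment is endostatin, was at 24.0 CPM in S1-02, 91.6 in S1-11, 88.4 in S1-12 and 37.5 in S2-06, against 22.1 to 41.8 in PNST and 2.79 to 22.9 in PWT. It was higher in FS by 1.47 (SE 0.40, adjusted p = 0.0230), and by 1.30 with the prefix in the model. The type IV collagen genes COL4A1 and COL4A2 were not DEGs in any comparison: COL4A1 was at 295 to 1081 CPM in FS, 507 to 1243 in PNST and 477 to 1132 in PWT.

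Of 12 other linker and matrix genes, 11 passed the filter. FBLN2, which encodes fibulin 2, a binding partner of nidogen and perlecan, was at 252 to 438 CPM in FS, 605 to 1059 in PNST and 190 to 595 in PWT. The PNST lay above all tumors of both other types. Over all 15408 genes tested, ranges did not overlap for 1112 between FS and PNST and for 416 between PNST and PWT. FBLN2 was lower in FS than in PNST by a log2 fold change of -1.33 (SE 0.32, adjusted p = 0.0164). For PNST against both other types it was called by DESeq2 and not by edgeR. SPARC and SMOC1, which encode related calcium-binding matrix proteins, were higher in FS than in PWT by 1.71 (adjusted p = 0.0114) and 2.73 (adjusted p = 0.0472), and neither was called with the prefix in the model (adjusted p = 0.107 and 0.183). AGRN, which encodes agrin, a linker of laminin and dystroglycan, was at 37.6 to 95.4 CPM in FS, 66.7 to 94.0 in PNST and 44.4 to 111 in PWT and was not a DEG.

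Of 18 receptor genes 17 were tested, and 1 was a DEG in 1 comparison by edgeR. This was ITGA1, which encodes the alpha 1 integrin subunit that binds collagen IV and laminin. It was higher in FS than in PNST by 1.99 (SE 0.57, adjusted p = 0.0419). DESeq2 called ITGA1, ITGA7 and BCAM there, beside 4.95% of all genes. The means of ITGA7 and BCAM were 83.8 and 28.2 CPM in FS, against 304 and 72.9 in PNST. DESeq2 also called ITGA7 for FS against both other types (5.8% of all genes) and SDC1 for FS against PWT (6.81%). The mean of SDC1 was 76.8 CPM in FS and 10.7 in PWT. DAG1, which encodes dystroglycan, the other main laminin receptor, was at 93.9 to 188 CPM in FS, 146 to 195 in PNST and 86.4 to 153 in PWT and was not a DEG.

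**Figure D5:**
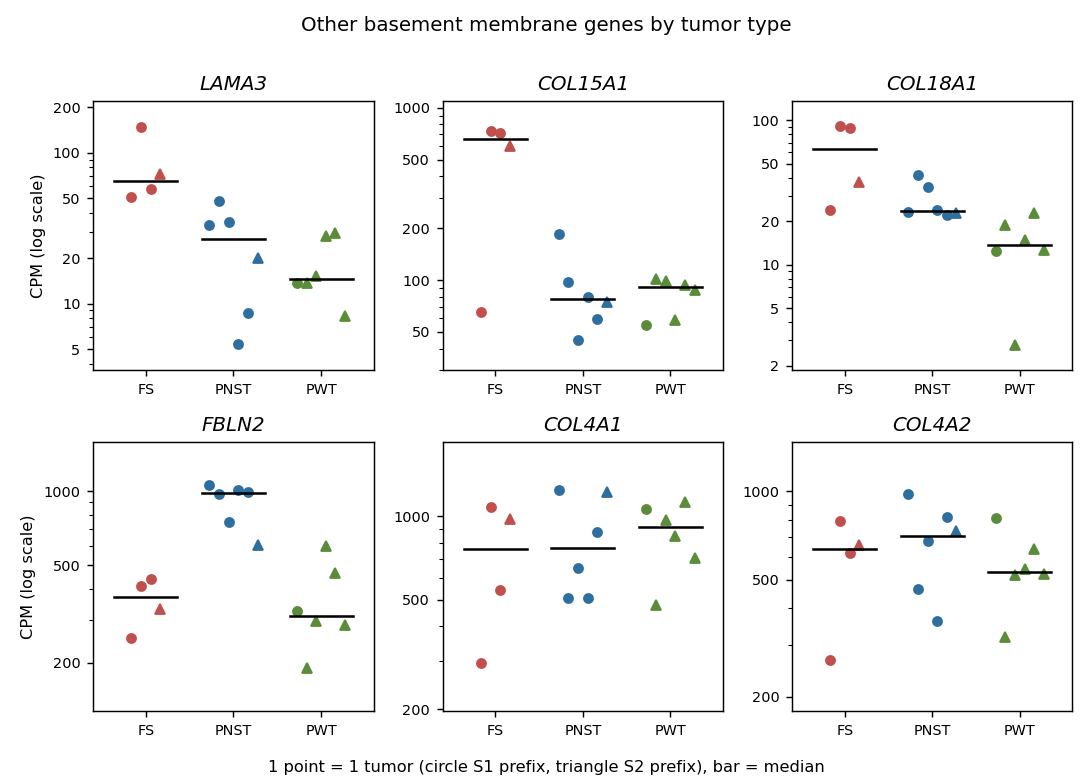
Level of 6 other basement membrane genes as CPM on a log scale, with 1 point per tumor (circles S1, triangles S2) and the median of each type as a bar. LAMA3 is above 50 CPM in the 4 FS, COL15A1 is above 500 CPM in 3 of them, and the 6 PNST lie above both other types for FBLN2.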

How the data were processed

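The authors extracted RNA from formalin-fixed, paraffin-embedded sections, depleted it of ribosomal RNA, sequenced it on an Ion Proton, aligned the reads with STAR to the assembly ROS-canfam-01 and counted them with HTSeq. The deposited values are raw read counts per gene, not normalized. Strand setting and versions are not given in the sources used here. 5 rows that name no gene were left out of library sizes. They held 69.4% to 77.1% of the reads listed per tumor (41.8% to 66.7% outside genes, 9.11% to 31.6% aligned more than once, 0.410% to 1.68% ambiguous). All 34 columns matched a tumor, and runs of a tumor were summed (16 samples). Without strand, reads of overlapping genes are uncertain: in RefSeq's annotation of UU_Cfam_GSD_1.0, used for names and neighbours only, LAMB2 overlaps CCDC71 (8.55 to 21.3 CPM) and LAMA2 overlaps LOC119875969 (6.73 to 114 CPM) and 3 other genes.

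Counts were analysed with edgeR 4.0.16 (TMM, quasi-likelihood test, limma 3.58.1) in R 4.3.3, on 15408 genes (10 or more reads in 4 or more tumors), with Benjamini-Hochberg adjustment over all of them. DEGs had an adjusted p under 0.05 and a log2 fold change beyond 1 in either direction. Each type was compared with both other types pooled in a model with 2 groups, and pairs of types in a model with 3. SE is the log2 fold change divided by the square root of its F statistic. Ratios of counts, with 0.5 added to each count, were tested two-sided by exact permutation of types over tumors. Nothing in the labels says that tumors with different entries share an animal, and p-values measure the spread between tumors. The edgeR fit of each type against both other types pooled was tested on simulated counts.

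The alternatives were DESeq2 1.42.0, RLE and upper quartile scaling, no filter on low counts, the histology groups, leaving out both reassigned tumors, the prefix in the model or fits within S1 or S2, summing S1-04 and S1-05, no minimum fold change, and leaving out each tumor. The 10 genes are all named. Of the other basement membrane lists, genes are named where called, at most 3 per list and comparison by smallest p, and for each of the 10 the gene outside them with the highest Spearman's rho. LAMB3, COL4A1, COL4A2, AGRN and DAG1 were named in addition, after their values were seen, as were ITGA7, BCAM and SDC1, which DESeq2 called. A few genes of these lists are not reported here, and counts are over the others. The genes, lists and tests were chosen with earlier results of these data known.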

Additional observations from a re-analysis of the deposited data

Results flagged for a closer look

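Within each type, the highest and lowest tumor of each of the 10 genes was compared with the others by the gap to its nearest neighbour relative to the range (Dixon's test, 95% critical values), which chance passes in about 1 in 20 groups. Of 30 groups 2 had such a tumor, both among the FS. LAMA2 was at 1812 CPM in S1-12, and at 264 to 508 CPM in the other 3 FS. S1-12 was the tumor with the fewest reads on genes (507728). LAMB2 was at 413 CPM in S1-11, and at 172 to 204 CPM in the other 3 FS.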

How the results depend on the processing

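Of 13 differences of the 10 genes with an unadjusted p under 0.05, none of 317 values under the alternatives changed sign. The 13 were picked by that p in the same data and the alternatives reuse the same tumors, so the 317 values are not independent. The counts of DEGs among the 10 moved. For FS against both other types the count was 0 with the histology groups, with the prefix in the model and in S1 tumors alone, and 0 to 2 when each tumor was left out. For PWT it was 0 with the histology groups, without both reassigned tumors, with the prefix in the model and in S2 tumors alone, and 0 to 1 with a tumor left out. For FS against PNST it was 0 to 1 with a tumor left out. For FS against PWT it was 1 with upper quartile scaling, with no filter, without both reassigned tumors and with S1-04 and S1-05 summed, 0 with the histology groups and with the prefix in the model, and 1 to 2 with a tumor left out. For PNST against PWT it was 1 in DESeq2. For PNST against both other types it was 0 under all alternatives. The adjusted exact p of LAMC3 to LAMC1 was 0.727 with the histology groups, 0.0626 without both reassigned tumors and 0.00257 to 0.0815 with a tumor left out, and that of LAMB2 to LAMB1 was 0.759 with the histology groups, 0.1246 without both reassigned tumors, 0.0374 within prefixes and 0.0422 to 0.364 with a tumor left out. Of the 44 other basement membrane genes, DESeq2 called 7 for FS and 1 for PNST against both other types, and 6 for FS against PNST. The cause was not tested. Type and prefix can be told apart only in part, with 1 PWT in S1 and 1 FS and 1 PNST in S2. LAMC3 rests on 5 to 216 reads per tumor, which limits its precision in PWT. No paired analysis was possible because the replicate numbers only name tumors and tie none across types.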
